A study of Mus musculus with 6 samples.

Results

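The PGC-1 coactivators and the DNA-binding factors they work with were followed in mouse cells after a small molecule acting on mitofusins, the proteins that tether and fuse mitochondria. The group holds 8 genes, picked by name with earlier results of these data known, and no measured value entered the rule: the coactivators Ppargc1a, Ppargc1b and Pprc1, the nuclear respiratory factor Nrf1, both subunits of GABP (Gabpa and Gabpb1), the nuclear receptor gene Esrra, and Yy1. All 8 were found among the 55291 genes listed, and all 8 passed the filter on low counts that left 14290 genes for testing. RNA-seq libraries came from wild-type mouse embryonic fibroblasts (WT MEFs), with 2 libraries for each of 3 groups: vehicle, MASM7, an activator of mitofusins, and MFI8, an inhibitor of mitofusins. MASM7 was given at 1 μM and MFI8 at 20 μM, each over 6 h, as the study states for these cells. The labels do not give the duration of the vehicle treatment. The labels give the cells as WT and name no engineered allele. No source used here says whether the 2 libraries of a group came from separate cultures. The p-values therefore measure the spread between these libraries, which may be technical.

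PGC-1α, encoded by Ppargc1a, is a transcriptional coactivator known for raising mitochondrial gene expression in tissues with a high energy demand such as brown fat, heart and skeletal muscle. It binds no DNA itself. PGC-1β (Ppargc1b) and the PGC-1-related coactivator PRC (Pprc1) share its general design, and PRC is known as the member that responds to serum in growing cells. The coactivators dock on factors that do bind DNA, among them NRF1, GABP, ERRα and YY1, whose targets include nuclear genes for the respiratory chain and for the upkeep of mitochondrial DNA. GABP, also called NRF-2, is an ETS-family complex in which the α subunit binds DNA and the β subunit carries the activating region. The Nrf1 described here is nuclear respiratory factor 1, a gene distinct from the stress-response factor Nfe2l1 that shares its abbreviation.

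Fibroblast identity was checked against markers first. Of 10 fibroblast markers, 9 reached 1 TPM (a transcript level scaled for gene length and library size) in the mean over the libraries, the exception being Thy1 at 0.283 to 0.751 TPM. None of 5 epithelial, 5 endothelial, 5 muscle or 5 adipocyte markers reached 1 TPM, and the summed level of each of those lists stayed at or under 2.21 TPM in every library. The epithelial sum was 1.44 to 1.54 TPM with vehicle, 2.07 to 2.15 TPM with MASM7 and 1.81 to 2.21 TPM with MFI8. For adipocyte markers these were 0.283 to 0.583, 0.689 to 0.825 and 0.605 to 0.734 TPM. For endothelial markers they were 0.394 to 0.428, 0.252 to 0.292 and 0.251 to 0.455 TPM. The muscle sum overlapped with vehicle. The part of these sums in the results below was not tested. Of 5 blood-cell markers, Cd68 (8.91 to 11.9 TPM) and Csf1r (4.18 to 6.01 TPM) were above 1 TPM and Ptprc, Adgre1 and Itgam were under it. The summed blood-marker level ran from 15.2 to 16.3 TPM in the vehicle libraries, from 14.6 to 16.9 TPM in the MASM7 libraries and from 13.4 to 14.0 TPM in the MFI8 libraries, and its part in the results below was not tested. In bulk RNA, fewer cells of a type and less RNA per cell cannot be told apart.

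The letters that these factors are known to read were searched for in the promoters of their own genes and of a list of 40 target genes, on both strands of windows from 250 bases before to 50 bases after each RefSeq transcription start on GRCm38.p6. The searched motifs were GCGCA, any base and GCGC for NRF1, CCGGAAGT for GABP and other ETS factors, TCAAGGTCA for the estrogen-related receptors, and AANATGGCG for YY1, and N stands for any base. A window was found for 7 of the 8 members and for 33 of the 40 targets. Among the members, Gabpb1 held the NRF1 letters, Gabpa held the YY1 letters, and none held the GABP or ERR letters. Over all genes with a window, 5.19% held the NRF1 letters, 4.31% the GABP letters, 0.466% the ERR letters and 2.76% the YY1 letters. Among the targets, 5 held the NRF1 letters (Polrmt, Cox6a1, Sdhd, Tomm20 and Alas1), 6 the GABP letters (Tfam, Twnk, Cox8a, Uqcrh, Tomm70a and Mfn1), 1 the ERR letters (Sdhd) and 2 the YY1 letters (Atp5b and Mfn1). A match is a description of these letters and not evidence of binding.

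The first pair of stretches below shows the matches inside the family itself, where a gene for one factor holds the letters of another. The second pair shows 2 target genes whose expression is described further on. All are RefSeq sequences on GRCm38.p6, written 5′ to 3′ along the strand of the gene, with the matched letters in capitals. The stretch of Gabpa (chr16:84835045-84835074, plus strand) has the YY1 letters on the opposite strand, 68 to 60 bases before the start and inside an exon annotated there. That of Gabpb1 (chr2:126675768-126675837, minus strand) has the NRF1 letters 215 to 206 bases before the RefSeq start searched. This stretch lies within the annotated span of the gene (chr2:126627442-126676337), and its NRF1 letters lie outside annotated exons.
Gabpa: agctaagactcCGCCATCTTtcctacactt
Gabpb1: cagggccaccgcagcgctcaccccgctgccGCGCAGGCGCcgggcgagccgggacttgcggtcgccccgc
The stretch of Tfam (chr10:71238073-71238102, minus strand) has the GABP letters 47 to 40 bases before the start, inside an annotated exon. That of Mfn1 (chr3:32529343-32529464, plus strand) has the YY1 letters and then the GABP letters, from 109 to 37 bases before the start.
Tfam: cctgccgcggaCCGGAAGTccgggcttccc
Mfn1: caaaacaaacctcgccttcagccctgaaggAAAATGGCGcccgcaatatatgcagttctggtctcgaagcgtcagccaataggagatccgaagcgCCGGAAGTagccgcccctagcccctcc

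The 3 coactivators were expressed at very different levels in these fibroblasts. Pprc1 (chr19:46044886-46072915, plus strand) had 166 and 148 TPM in the vehicle libraries, 176 and 170 TPM in the MASM7 libraries and 176 and 167 TPM in the MFI8 libraries. Its mean level was higher than that of 92.0% of the genes tested. Ppargc1a (chr5:51454250-51567726, minus strand) had 2.03 and 2.40 TPM with vehicle, 2.32 and 2.38 TPM after MASM7 and 1.67 and 2.13 TPM after MFI8. Ppargc1b, on chromosome 18, had 2.01 and 2.37 TPM with vehicle, 1.75 and 2.18 TPM after MASM7 and 2.95 and 2.34 TPM after MFI8. Both therefore lay near the bottom of the tested genes, the mean TPM of Ppargc1a being above that of 16.4% of them.

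In each library the TPM of Pprc1 was 61.5 to 106 times that of Ppargc1a and 59.7 to 101 times that of Ppargc1b. Pprc1 accounted for 96.9% to 97.7% of the summed TPM of the 3 coactivator genes. The ranges of Ppargc1a and Ppargc1b overlapped, and neither was the higher of the 2 in all 6 libraries. The low pair rests on few reads, with 70 to 137 raw counts per library for Ppargc1a and 52 to 80 for Ppargc1b. An exact Poisson 95% interval, which covers counting error only, ran from 54.6 to 88.4 for the lowest count of Ppargc1a, and from 38.8 to 68.2 for the lowest count of Ppargc1b.

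The DNA-binding factors fell between these extremes. Gabpa (chr16:84834925-84863779, plus strand), the DNA-binding subunit of GABP, had 86.2 to 103 TPM over the 6 libraries. Yy1 (chr12:108792973-108820148, plus strand), a zinc-finger factor that can activate or repress, had 68.3 to 76.8 TPM. Nrf1 (chr6:30047988-30153458, plus strand) had 22.5 to 24.7 TPM. These levels put Gabpa and Yy1 above 84.9% and 79.8% of the tested genes, and Nrf1 near the middle at 54.8%.

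Gabpb1 (chr2:126627442-126676337, minus strand), one of the genes for the β subunit, had 22.3 to 23.5 TPM. Esrra (chr19:6910977-6921813, minus strand), which encodes the orphan nuclear receptor ERRα, had 16.1 to 21.9 TPM. By mean TPM the order was Pprc1, Gabpa, Yy1, Nrf1, Gabpb1, Esrra, Ppargc1b and Ppargc1a, at 167, 94.9, 71.1, 23.6, 22.9, 19.8, 2.27 and 2.15 TPM. Neighbours in this order did not overlap in TPM over the 6 libraries, except Nrf1 with Gabpb1 and Ppargc1b with Ppargc1a.

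The 2 GABP subunits were not at equal level. The TPM of Gabpa was 3.87 to 4.57 times that of Gabpb1 in each library. Gabpb2, a second gene for a β subunit, had 1.58 to 1.74 times the TPM of Gabpb1, and Gabpa was at 1.46 to 1.67 times the summed TPM of both β genes. Of the paralogs of the members, Yy2 and Esrrg had 0 counts in every library and Esrrb had at most 1. Perm1, a muscle gene known to be induced by PGC-1 and ERR proteins, also had at most 1 count. Ppara, a receptor that PGC-1α coactivates in liver, had at most 3 counts.

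**Figure D1:**
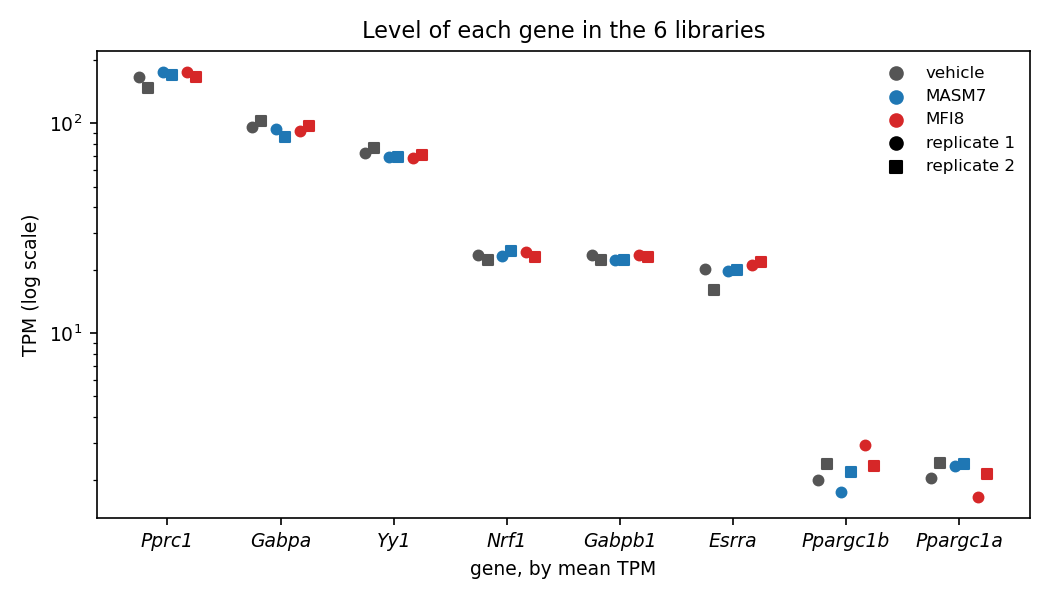
Level of each of the 8 genes in TPM (log axis) in the 6 libraries, with genes ordered by mean TPM, colour for the group and symbol for the replicate number. Pprc1 sits between 148 and 176 TPM, and Ppargc1b and Ppargc1a both sit between 1.67 and 2.95 TPM, with no other gene of the family in between 2.95 and 16.1 TPM.

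Between libraries, the genes of the family differed in how far their level varied. Comparisons between libraries used CPM, a count scaled to library size after TMM normalization and not corrected for gene length. The highest CPM over the lowest was 1.06 for Gabpb1, 1.12 for Nrf1, 1.14 for Yy1, 1.16 for Gabpa and 1.21 for Pprc1. It was 1.34 for Esrra, 1.48 for Ppargc1a and 1.64 for Ppargc1b, the latter pair being the genes with the fewest counts.

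MFI8 was compared with vehicle to ask how the family's transcripts stood after inhibition of the mitofusins. No member passed the test. With edgeR's quasi-likelihood test on raw counts and Benjamini-Hochberg adjustment over all 14290 genes, 0 of the 8 members had an adjusted p under 0.05, as did 0% of all genes. DESeq2's Wald test likewise called 0 members, against 0.329% of all genes, and edgeR with the replicate number as a block called 0 members, against 5.04% of all genes. At an unadjusted p under 0.05 there was 1 member, Yy1, against 9.86% of all genes. The fitted log2 fold change was above 0 for 4 members and below 0 for 4, with a median of 0.0028 against 0.0027 over all genes tested, and this median lay between -0.041 and 0.050 as each library was left out. The widest 95% interval among the members, that of Ppargc1b, reached a fold of 1.67.

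Yy1 had 132 and 138 CPM with vehicle and 122 and 126 CPM with MFI8. Both MFI8 libraries were below both vehicle libraries, and the log2 fold change was -0.13 (SE 0.053, 95% interval -0.25 to -0.010), with an adjusted p of 0.464. Gabpa had 156 and 164 CPM with vehicle and 146 and 154 CPM with MFI8, again without overlap. Its log2 fold change of -0.091 (SE 0.062) had an adjusted p of 0.650.

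Esrra was the one member with both MFI8 libraries above both vehicle libraries. It had 25.3 and 19.95 CPM with vehicle and 25.9 and 26.8 CPM with MFI8. The second vehicle library stood apart, while the first lay close to the MFI8 libraries. The log2 fold change was 0.22 (SE 0.108, 95% interval -0.020 to 0.46), with an adjusted p of 0.535, and it was 0.058 without vehicle replicate 2. In all, 1 of 8 members lay wholly above vehicle and 2 lay wholly below, against 20.9% and 19.3% of all genes tested.

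The remaining members overlapped with vehicle. Pprc1 had 298 and 261 CPM with vehicle and 307 and 292 CPM with MFI8, a log2 fold change of 0.10 (SE 0.066, adjusted p 0.634) that was 0.0094 without vehicle replicate 2. Nrf1 had 69.2 and 64.9 CPM with vehicle and 69.7 and 65.8 CPM with MFI8. Gabpb1 had 52.0 and 48.9 CPM with vehicle and 50.6 and 49.6 CPM with MFI8. For these last 2 genes the 95% interval of the difference reached a fold of 1.12 and 1.11 at most.

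The low coactivators left the widest room. Ppargc1a had 3.81 and 4.45 CPM with vehicle and 3.05 and 3.89 CPM with MFI8, so 1 MFI8 library was below both vehicle libraries and 1 was between them. Its log2 fold change was -0.24 (SE 0.19, adjusted p 0.692), and it ranged from -0.44 to -0.088 as each library was left out. Ppargc1b had 2.28 and 2.66 CPM with vehicle and 3.27 and 2.59 CPM with MFI8, where the first MFI8 library alone was above vehicle. Its log2 fold change was 0.23 (SE 0.23, adjusted p 0.769), with a range of 0.068 to 0.40 as each library was left out. Both values were nearest 0 without MFI8 replicate 1.

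MASM7 was compared with the same vehicle libraries to ask the question for activation of the mitofusins. Again no member passed without the replicate block. By edgeR 0 of 8 members, and 0% of all genes, had an adjusted p under 0.05, and DESeq2 called 0 members, against 0.021% of all genes. With the replicate number as a block the call changed for Pprc1, so 1 of 8 members passed, against 3.88% of all genes. At an unadjusted p under 0.05 there was 1 member, Pprc1, against 10.2% of all genes. The log2 fold change was above 0 for 4 members and below 0 for 4, with a median of 0.026 against 0.00067 over all genes. This median lay between -0.016 and 0.068 as each library was left out, so its sign turned. No member's 95% interval reached beyond a fold of 1.57.

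Pprc1 had 298 and 261 CPM with vehicle and 316 and 307 CPM with MASM7. Both MASM7 libraries were above both vehicle libraries, and vehicle replicate 2 was the lowest of the 6. The log2 fold change was 0.16 (SE 0.066, 95% interval 0.0085 to 0.30), with an adjusted p of 0.480, or 0.0437 with the replicate block, and it was 0.065 without vehicle replicate 2. Gabpa had 153 and 141 CPM with MASM7, below both vehicle libraries at 156 and 164 CPM. For Gabpa the log2 fold change was -0.12 (SE 0.062), with an adjusted p of 0.528.

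Yy1 had 127 and 128 CPM with MASM7, below its 132 and 138 CPM with vehicle. Its log2 fold change was -0.089 (SE 0.053), with an adjusted p of 0.572. Thus Pprc1 alone lay wholly above vehicle and Gabpa and Yy1 lay wholly below, that is 1 and 2 of 8 members against 21.2% and 21.6% of all genes. Esrra had 24.9 and 25.3 CPM with MASM7, between its 2 vehicle values. For Esrra the log2 fold change was 0.15 (SE 0.108, adjusted p 0.627), and it was -0.013 without vehicle replicate 2.

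The other 4 members overlapped with vehicle. Nrf1 had 68.5 and 72.9 CPM with MASM7, a log2 fold change of 0.077 (SE 0.065, adjusted p 0.683). Gabpb1 had 49.6 CPM in both MASM7 libraries, a log2 fold change of -0.024 (SE 0.063, adjusted p 0.909). The value of Nrf1 lay between 0.031 and 0.12 as each library was left out. The intervals of both reached a fold of at most 1.17 for Nrf1 and 1.12 for Gabpb1. Ppargc1a had 4.36 and 4.50 CPM and Ppargc1b had 1.99 and 2.50 CPM with MASM7. Their log2 fold changes were 0.099 (SE 0.18) and -0.14 (SE 0.23), with adjusted p of 0.866 and 0.846. As each library was left out they lay between -0.0064 and 0.22 and between -0.31 and 0.013, so both signs turned.

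**Figure D2:**
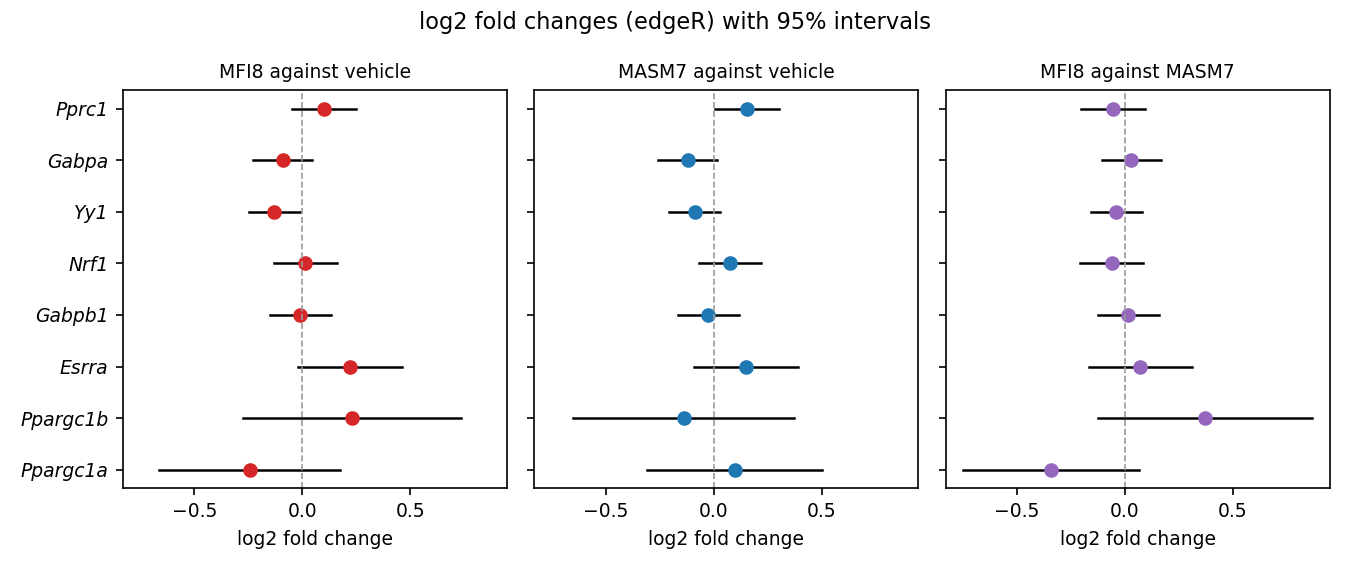
Fitted log2 fold change (points) and 95% interval (lines) of the 8 genes from edgeR for MFI8 against vehicle, MASM7 against vehicle and MFI8 against MASM7, with genes ordered by mean TPM. The intervals of Yy1 with MFI8 and of Pprc1 with MASM7 end just short of 0, the others include 0, and the lines are widest for Ppargc1b and Ppargc1a.

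The 2 compounds were also set against each other, where compound and concentration cannot be told apart because the doses were 20 μM and 1 μM. By edgeR 0 of 8 members and 0% of all genes had an adjusted p under 0.05, and 0 members had an unadjusted p under 0.05, against 7.18% of all genes. DESeq2 and edgeR with the replicate block each called 0 members, against 0.168% and 3.07% of all genes. The low coactivators had the largest differences, with opposite signs. Ppargc1a was lower in both MFI8 libraries (3.05 and 3.89 CPM) than in both MASM7 libraries (4.36 and 4.50 CPM), a log2 difference of -0.34 (SE 0.18, 95% interval -0.75 to 0.066, adjusted p 0.720). Ppargc1b was higher in both MFI8 libraries (3.27 and 2.59 CPM) than in both MASM7 libraries (1.99 and 2.50 CPM), a log2 difference of 0.37 (SE 0.22, 95% interval -0.13 to 0.87, adjusted p 0.749). Both values depended on single libraries. For Ppargc1a the difference was -0.19 without MFI8 replicate 1 and -0.54 without MFI8 replicate 2. For Ppargc1b it was 0.21 and 0.54 without these same libraries, and 0.22 and 0.54 without MASM7 replicate 1 and MASM7 replicate 2.

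The ratio of Ppargc1b to Ppargc1a in TPM was 0.988 in both vehicle libraries, 0.755 and 0.916 after MASM7 and 1.77 and 1.10 after MFI8. The MASM7 libraries were thus below and the MFI8 libraries above the vehicle libraries in this ratio, which was looked at after its values were seen. At 2 libraries a group, the smallest two-sided p that exact permutation of one value allows is 0.333. Of the other members, Esrra and Gabpb1 were above MASM7 in both MFI8 libraries and Yy1 was below. That made 3 members wholly above and 2 wholly below, against 19.6% of all genes in each direction, and the log2 differences of the 6 members other than Ppargc1a and Ppargc1b lay between -0.063 (Nrf1) and 0.071 (Esrra).

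Since a single library decided some of these values, each was left out in turn. For Esrra the result depended on which vehicle library was kept, and its log2 fold change went from 0.058 without vehicle replicate 2 to 0.40 without vehicle replicate 1 for MFI8, and from -0.013 to 0.33 for MASM7. Pprc1 moved in the same way, from 0.0094 to 0.20 for MFI8 and from 0.065 to 0.25 for MASM7. The value of Yy1 lay between -0.16 and -0.094 for MFI8 and between -0.12 and -0.054 for MASM7. That of Gabpa lay between -0.13 and -0.047 for MFI8 and between -0.18 and -0.059 for MASM7. For both genes the treated libraries all lay below both vehicle libraries. Their sign therefore could not turn when 1 library was left out, and it adds no support. Both comparisons use the same vehicle libraries, so a vehicle library that is high or low moves both.

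**Figure D3:**
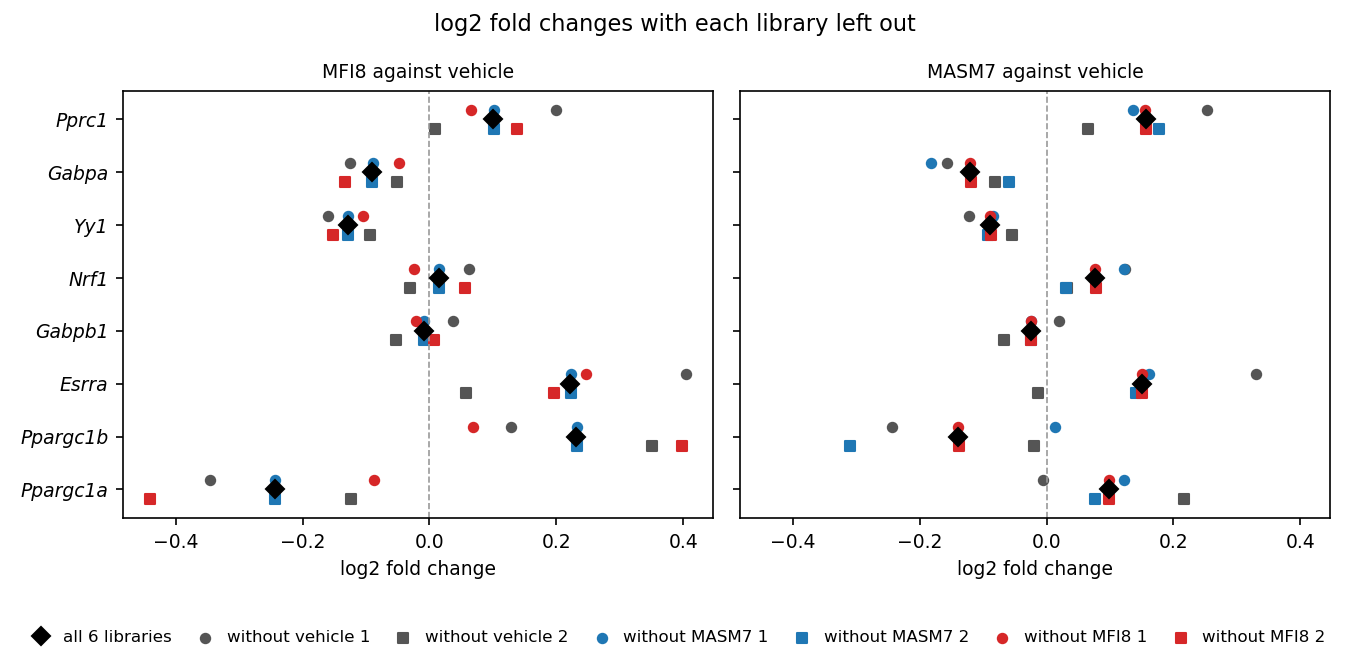
Log2 fold change of the 8 genes against vehicle with all 6 libraries (diamonds) and with each library left out in turn (coloured symbols, colour for the group and shape for the replicate number of the library left out). For Esrra the value with MFI8 runs from 0.058 to 0.40 according to which vehicle library is left out. That of Yy1, whose MFI8 libraries both lie below both vehicle libraries, runs from -0.16 to -0.094.

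A list of 36 partner genes was taken next, made up of paralogs, the receptors, coactivators and corepressors that work with the PGC-1 proteins, the enzymes that modify PGC-1α, and factors that act on its gene or on those of the family. Of these, 31 were tested. Against vehicle, 0 of 31 had an adjusted p under 0.05 by edgeR with either compound. DESeq2, which gave no adjusted p for Pparg with MFI8, called 1 with MFI8 and 0 with MASM7, where it called 47 and 3 of all 14290 genes. With the replicate block edgeR called 2 with MFI8 and 1 with MASM7, against 5.04% and 3.88% of all genes. At an unadjusted p under 0.05 there were 3 of 31 with MFI8, all higher, against 9.86% of all genes, and 6 of 31 with MASM7, 3 higher and 3 lower, against 10.2% of all genes. The median log2 fold change was 0.035 with MFI8 and -0.045 with MASM7, where that over all genes was 0.0027 and 0.00067. As each library was left out the median lay between 0.014 and 0.067 with MFI8 and between -0.046 and 0.015 with MASM7, where its sign turned, and with the replicate block it was -0.014 for MASM7.

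Myc, a growth-related transcription factor known to act on many nuclear genes for mitochondria, was the partner that DESeq2 called. It had 171 and 145 CPM with vehicle, 181 and 168 CPM after MASM7 and 197 and 203 CPM after MFI8. Both MFI8 libraries were above the other 4, and vehicle replicate 2 was the lowest. Against vehicle, the log2 fold change of Myc for MFI8 was 0.34 (SE 0.077), with an adjusted p of 0.270 by edgeR, 0.0407 by DESeq2 and 7.15e-05 by edgeR with the replicate block, and it lay between 0.23 and 0.46 as each library was left out.

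The histone acetyltransferases CBP (Crebbp) and p300 (Ep300), which are recruited by PGC-1α, followed. Crebbp had 54.9 and 49.2 CPM with vehicle and 59.7 and 63.9 CPM with MFI8, and Ep300 had 169 and 167 CPM with vehicle and 188 and 183 CPM with MFI8. Neither overlapped with vehicle. Their log2 fold changes were 0.25 (SE 0.078) and 0.14 (SE 0.049), with adjusted p of 0.392 and 0.413. With the replicate block Crebbp passed (adjusted p 0.0214) and Ep300 did not. All 5 coactivators of the list (Crebbp, Ep300, Hcfc1, Ncoa1 and Med1) had a fitted value above 0 with MFI8, with a median of 0.14, also under scaling by library size alone, by DESeq2's size factors and by TPM, and 2 of them had an unadjusted p under 0.05, against 9.86% of all genes. Of all genes, 7239 of 14290 were above 0 by edgeR, and the 5 coactivators were not tested as a group. This subgroup was singled out after its values were seen. Among the coactivators of the family itself, Ppargc1a was below 0 with MFI8 and Pprc1 and Ppargc1b were above 0.

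With MASM7, the receptor gene Ppard, whose product PPARδ is a partner of PGC-1α in fat oxidation, had the smallest p of the partners. It had 79.0 and 64.2 CPM with vehicle and 92.4 and 84.4 CPM with MASM7, without overlap. Its log2 fold change was 0.30 (SE 0.094, adjusted p 0.473, or 0.00278 with the replicate block), and it was 0.16 without vehicle replicate 2. Mef2a, a muscle factor known to act on the PGC-1α gene, and Atf2, a stress-activated factor with the same known role, were lower in both MASM7 libraries than in both vehicle libraries. Their log2 fold changes were -0.15 and -0.13, with adjusted p of 0.477 and 0.479.

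A list of 40 known target genes of the family was described last, of which 39 were tested. Pdk4, a PGC-1α target in fuel choice, had at most 3 counts. By edgeR 0 of 39 had an adjusted p under 0.05 with either compound, and DESeq2 also called 0, against 0.329% of all genes with MFI8 and 0.021% with MASM7. With the replicate block edgeR called 1 of 39 with each compound, against 5.04% and 3.88% of all genes. At an unadjusted p under 0.05 there were 4 of 39 with MFI8, all lower, against 9.86% of all genes, and 5 of 39 with MASM7, 3 higher and 2 lower, against 10.2% of all genes. The median log2 fold change was -0.0054 with MFI8 and 0.030 with MASM7, and as each library was left out it lay between -0.018 and 0.012 with MFI8 and between 0.0089 and 0.047 with MASM7. With MFI8 17 targets had a fitted value above 0 and 22 below, and with log2(TPM + 1) in limma the split turned to 23 and 16. Over all genes, 7239 of 14290 were above 0 by edgeR and 8475 of 14710 on the TPM scale. With MASM7 the split of the targets was 24 and 15, where 7163 of 14290 genes were above 0, and 21 and 18 on the TPM scale, where 6727 of 14710 genes were.

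Tfam, which packages and transcribes mitochondrial DNA and carries the GABP letters printed above, was lower with both compounds. It had 80.2 and 84.7 CPM with vehicle, 74.2 and 75.3 CPM after MASM7 and 73.3 and 73.8 CPM after MFI8. All 4 treated libraries were below both vehicle libraries, which the 2 comparisons share. Of all genes, 19.3% were wholly below vehicle with MFI8 and 21.6% with MASM7, and the share below with both was not counted. The log2 fold change was -0.17 (SE 0.057, adjusted p 0.412) with MFI8 and -0.14 (SE 0.056, adjusted p 0.477) with MASM7, and neither passed. Of the 7 genes listed for the upkeep of mitochondrial DNA, Tfam included, 4 were above 0 and 3 below with MFI8. Their median log2 fold change was 0.12, and 2 had an unadjusted p under 0.05, both lower, against 9.86% of all genes. With MASM7 4 were above and 3 below, with a median of 0.0067. On the TPM scale in limma the MFI8 split became 5 and 2, where 8475 of 14710 genes were above 0. The MASM7 split became 3 and 4, where 6727 of 14710 genes were.

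Tomm70a, a receptor for protein import at the outer membrane, had 487 and 511 CPM with vehicle and 452 and 447 CPM with MFI8. For Tomm70a the log2 fold change was -0.15 (SE 0.051, adjusted p 0.412, or 0.0444 with the replicate block). Uqcrh, a subunit of complex III, had a log2 fold change of -0.13 (SE 0.053, adjusted p 0.470) with MFI8, and its libraries did not overlap with vehicle either. Tomm20, an import receptor often used as a marker of mitochondrial content, overlapped with vehicle in both comparisons, with log2 fold changes of -0.047 for MFI8 and 0.063 for MASM7.

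The 19 respiratory chain genes had a median log2 fold change of -0.019 with MFI8, where 7 were above 0 and 12 below, and of 0.042 with MASM7, where 13 were above 0 and 6 below. On the TPM scale in limma, with its 8475 of 14710 genes above 0, the MFI8 split became 10 and 9, and with its 6727 of 14710 genes above 0 the MASM7 split became 12 and 7. Atp5g1, which encodes a subunit of the membrane ring of ATP synthase, had 134 and 125 CPM with vehicle and 143 and 157 CPM with MASM7. The fitted log2 fold change of Atp5g1 was 0.21 (SE 0.063, adjusted p 0.473, or 0.0222 with the replicate block), and 0.14 without MASM7 replicate 2. Mrps12, a protein of the mitochondrial ribosome, had 0.26 (SE 0.099, adjusted p 0.477) with MASM7, and 0.13 without MASM7 replicate 2.

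The genes of the mitofusins themselves are counted among the targets. Mfn1, with the YY1 and GABP letters printed above, had 111 and 109 CPM with vehicle, 102 and 100.1 CPM after MASM7 and 106 and 101 CPM after MFI8. All 4 treated libraries were below both vehicle libraries, where 19.3% of all genes were wholly below with MFI8 and 21.6% with MASM7. How many genes were below with both was not counted. For Mfn1 the log2 fold change was -0.12 (SE 0.054, adjusted p 0.488) with MASM7 and -0.089 (SE 0.054, adjusted p 0.610) with MFI8, and the latter lay between -0.12 and -0.053 as each library was left out. Mfn2 had log2 fold changes of 0.0098 (SE 0.053, adjusted p 0.963) with MASM7 and 0.065 (SE 0.053, adjusted p 0.707) with MFI8.

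**Figure D4:**
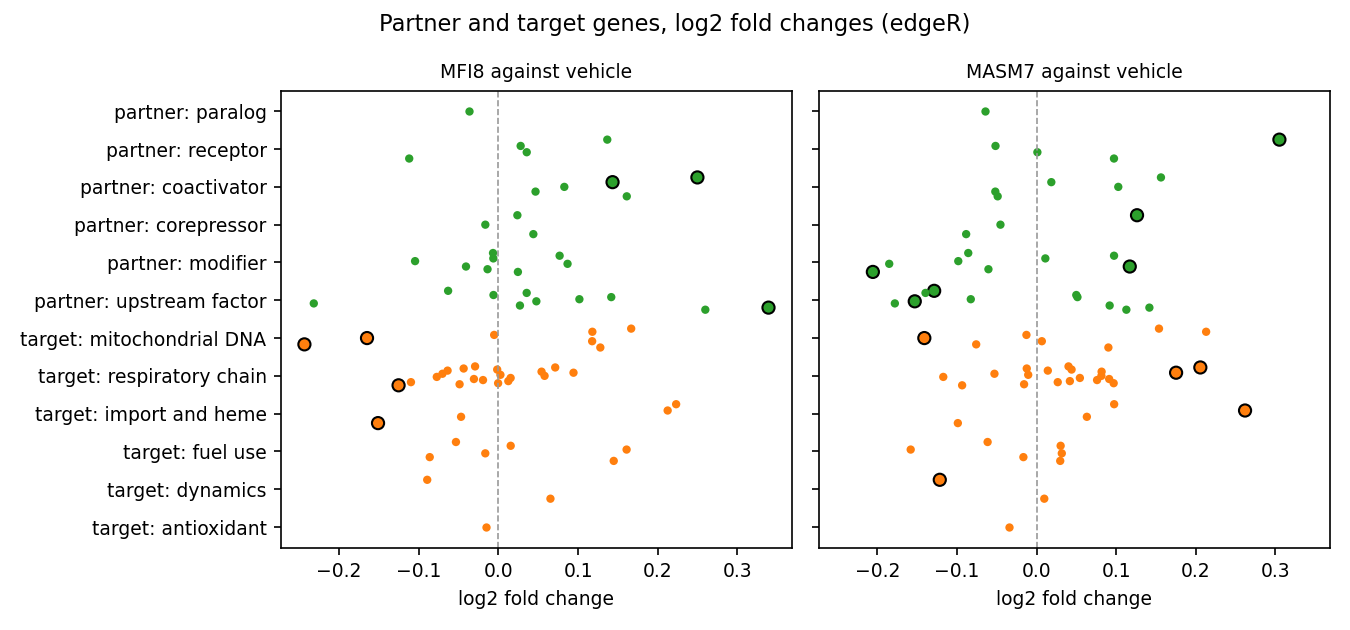
Log2 fold change of the 31 tested partner genes (green) and the 39 tested target genes (orange) by subgroup for each compound against vehicle, 1 point per gene, with larger outlined points for an unadjusted p under 0.05. The 5 coactivators, a subgroup singled out after its values were seen, all lie to the right of 0 with MFI8. No gene shown has an adjusted p under 0.05 in this edgeR fit, which has the filter on low counts and no replicate block.

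The pattern of each member over the 6 libraries was finally compared with that of the 14289 other tested genes, by the root mean square difference of mean-centred log2 CPM. The nearest genes were Ckap2 and Hnrnpa2b1 for Yy1, Ell and Vps52 for Pprc1, Mier1 and Sec23a for Gabpa, and Srp54a and Klc4 for Esrra. For Nrf1 they were Rps6 and Tmed3, for Gabpb1 Dcaf7 and Rpa1, for Ppargc1a AA474408 and Gm44243, and for Ppargc1b Ap4b1 and AV356131. No member was the nearest gene of another. Within the family Gabpa and Yy1 were each other's nearest member, at a difference of 0.049, and so were Nrf1 and Gabpb1, at 0.053. In the first pair Yy1 stood at place 548 in order of likeness to Gabpa and Gabpa at place 987 in order of likeness to Yy1. In the second pair Gabpb1 stood at place 1071 for Nrf1, and Nrf1 at place 1436 for Gabpb1. Gabpb1 varied by 0.029 around its own mean, which is less than its difference from Nrf1, so this pair shows no shared pattern.

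Exons of some members overlap those of a neighbour. The strand setting of the counting is not given, so it is not known how reads in these stretches were assigned. Gabpa shares 397 exon bases (6.98% of its exons) with Atp5j on the opposite strand. Pprc1 shares 177 bases (2.82%) with Ldb1, and Esrra shares 73 bases (1.66%) with Trmt112 on the opposite strand and 91 bases (2.07%) with Mir6990 on its own strand. Gabpb1 shares 14 bases with an antisense gene.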

How the data were processed

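RNA-seq was performed on 6 libraries of WT MEFs in 3 groups, as given by the labels. The submitters' processing notes name Trimmomatic, STAR and featureCounts, with GRCm38 as the build. The authors deposited whole-number raw counts for each gene. They also deposited TPM values, whose gene lengths equal the union exon lengths of GENCODE release M21 within 1% for 98.5% of 8983 genes. The annotation release and strand setting are not given in the sources used here. The authors' size-factor-normalized counts were not used.

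Counts per library totalled 22791792 to 30677751, and this number limits the precision of low genes. Counts of all 6 libraries were fitted in edgeR 4.0.16 (R 4.3.3) with filterByExpr, TMM factors and 1 coefficient per group, using the quasi-likelihood test, with p adjusted by Benjamini-Hochberg over 14290 genes and a threshold of 0.05. The SE was taken as the absolute log2 fold change over the root of the F statistic. On simulated counts for MFI8 against vehicle over 5900 genes, this recovered 83.2% of 196 genes changed 2-fold, with 3.55% of calls false. The simulation gave every gene the same dispersion and no change other than 2-fold. It therefore does not show how often smaller changes, such as those fitted here, would be found. CPM used TMM factors. The alternatives were DESeq2 1.42.0, limma 3.58.1 on log2(TPM + 1) or log2(TPM + 0.1), other scalings and filters, a replicate block, and each library left out. The labels number the libraries 1 and 2 in every group, and no source used here says that a number marks a shared culture or day. The differences between replicates correlated at 0.152 to 0.188 over genes in all 3 pairs of groups, so the fit with the number as a block is given beside each result whose call it changes.

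The members and lists were chosen with earlier results of these data known. Named genes were all members, the 3 partner and 3 target genes with the smallest p for each compound, Mfn1, Mfn2, Tfam, Tomm20, and the 2 genes nearest each member in pattern. Genes at or near 0 counts and other coactivators were named after their values were seen.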

Additional observations from a re-analysis of the deposited data

How the results depend on the processing

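Under 16 alternatives, 17 of 384 recomputed log2 fold changes of the 8 members had the opposite sign, in 8 of 24 results. With scaling by library size alone, Gabpb1 with MFI8 was 0.0019 and Mfn2 with MASM7 was -0.0010. With limma on log2(TPM + 1), log2(TPM + 0.1) and log2(TPM + 1) without a filter, Gabpb1 with MFI8 was 0.018, 0.018 and 0.018, Yy1 for MFI8 against MASM7 was 0.0023, 0.0024 and 0.0023, and Mfn2 with MASM7 was -0.0070, -0.0071 and -0.0070. With each library left out in turn, the log2 fold change with MFI8 lay between -0.031 and 0.063 for Nrf1, -0.052 and 0.037 for Gabpb1, and -0.15 and 0.063 for Tomm20. With MASM7 it lay between -0.0064 and 0.22 for Ppargc1a, -0.31 and 0.013 for Ppargc1b, -0.067 and 0.020 for Gabpb1, -0.013 and 0.33 for Esrra, -0.020 and 0.040 for Mfn2, and -0.037 and 0.17 for Tomm20. For Gabpa with MFI8 against MASM7 it lay between -0.031 and 0.093. These fits take the spread from the other groups, since the lone library is assumed to vary like them. They called 0 members, partners and targets, and over all genes 0 to 26 with MFI8, 0 to 2 with MASM7 and 0 to 24 between the compounds, so these counts say little about stability.

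With no filter beyond 1 count in any library, 1 partner passed with MFI8 (Myc, adjusted p 1.56e-05 by edgeR) and 1 with MASM7 (Ppard, adjusted p 0.00471), where 256 and 127 of all 26760 genes passed. DESeq2 called 1 partner with MFI8 (Myc, adjusted p 0.0407). The cause was not tested. With the replicate number as a block, edgeR called 1 member with MASM7 (Pprc1, log2 fold change 0.16, adjusted p 0.0437) and 0 members with MFI8 or between the compounds. The block also gave 2 partners with MFI8 (Myc, adjusted p 7.15e-05, and Crebbp, 0.0214), 1 target with MFI8 (Tomm70a, 0.0444), 1 partner with MASM7 (Ppard, 0.00278) and 1 target with MASM7 (Atp5g1, 0.0222), and over all genes 720 calls with MFI8 and 554 with MASM7. It changed no other call among the members and the named genes. Alternatives for the named partners and targets were added after the data were seen. Ppargc1a and Ppargc1b had 52 to 137 counts per library and 2 libraries per group, and changes within their intervals were not detectable here, with the parts of depth and of the spread between libraries not separated.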
